A study of Mus musculus with 2 samples.

Results

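A set of 10 genes of innate immune sensing were followed in adipose tissue macrophages (ATMs): the Toll-like receptors Tlr2, Tlr4, Tlr7 and Tlr13, the receptor partners Cd14 and Ly96, the adaptor Myd88, and the inflammasome genes Nlrp3, Pycard and Casp1. These 10 genes were taken by symbol from the 31053 genes in the count table, of which 15902 had at least 1 UMI in the cells kept. Single-cell RNA-seq was made from ATMs of the epididymal fat of male C57/BL6 mice, 8 to 12 weeks old, given either a control diet (CD, 11% of calories from fat) or a high fat diet overnight (HFD, 58% of calories from fat). Cells from 3 mice were pooled for each diet, so each diet is 1 library with no replicate, and a difference between diets below is a difference between 2 libraries. Both groups went through the same collagenase digestion of 35 min and a sort, labelled CD45+Lin-Ly6Clow/-F4/80+ and given in the methods as CD11b+F4/80+ after exclusion of cells with lineage markers such as TCRb, SiglecF and Ly6G. No allele or transgene is named for either group.

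Toll-like receptors recognise conserved parts of microbes. Tlr2 and Tlr4 act at the cell surface, on lipoproteins and on lipopolysaccharide, while Tlr7 and Tlr13 sit in endosomes and read single-stranded RNA and bacterial ribosomal RNA. CD14 hands lipopolysaccharide to the complex of TLR4 and MD-2 (the product of Ly96), and MyD88 links most of these receptors to NF-kB. That signal is also known to prime the NLRP3 inflammasome, in which the sensor NLRP3, the adaptor ASC (the product of Pycard) and caspase-1 assemble and mature IL-1b and IL-18. In obese adipose tissue these pathways are studied as links between lipid excess and inflammation.

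Cells with 200 to 3500 genes and at most 10% mitochondrial UMIs were kept, 2364 of 4459 CD barcodes (12284010 UMIs, median 4490 per cell) and 2021 of 3163 HFD barcodes (8086475 UMIs, median 2792). The mitochondrial limit took out 46.2% of CD and 35.8% of HFD barcodes, 10 barcodes were kept in both libraries, and no doublets were called. Macrophage markers were detected in both libraries (8 of 8, of which 3 were lower by 1.5-fold in HFD, with Adgre1, the gene of F4/80, at 274 UMIs per 1000000 UMIs, or CPM, in CD and 240 CPM in HFD), whereas Cd3e, Ms4a1, Ly6g and the 3 mast cell markers had no UMI. Other markers on the same lists were detected. The T, NK or B cell markers summed to 102 UMIs in CD and 54 in HFD. The neutrophil markers summed to 1783 and 925 UMIs, of which Mmp9 held 1592 and 862. A total of 5 classes that may overlap were read from markers. In CD and HFD, 1172 and 415 cells were Lyve1+, 872 and 581 were Folr2+Lyve1-, 1326 and 1131 were Ccr2+, 555 and 672 had 10 or more Lyz1 UMIs (Lyz1-high), and 42 and 73 were Plac8+. Of the Lyz1-high cells, 95.7% in CD and 89.7% in HFD were also Ccr2+. The HFD library had 276 cells (13.7%) in no class against 47 (1.99%) in CD, and 1 UMI made a cell positive. With every cell thinned to 1000 UMIs and Lyz1-high set at 3 UMIs, Lyve1+ cells were 622 of 2312 in CD and 213 of 1754 in HFD, and Lyz1-high cells 469 and 670.

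Across all kept cells, 3 of the 10 genes were higher by at least 1.5-fold in the HFD library, Cd14, Nlrp3 and Tlr13, and 0 were lower by that fold. The same thresholds, with at least 20 UMIs in both libraries together, held for 6.28% of 11170 genes in the higher direction and 11.9% in the lower direction. The median log2 ratio of HFD over CD was 0.05 over the 10 genes and -0.02 over all genes. Intervals below are 95% intervals for counting error only, and UMIs summed over a library do not show whether more cells carried a gene or whether each cell carried more of it.

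**Figure D1:**
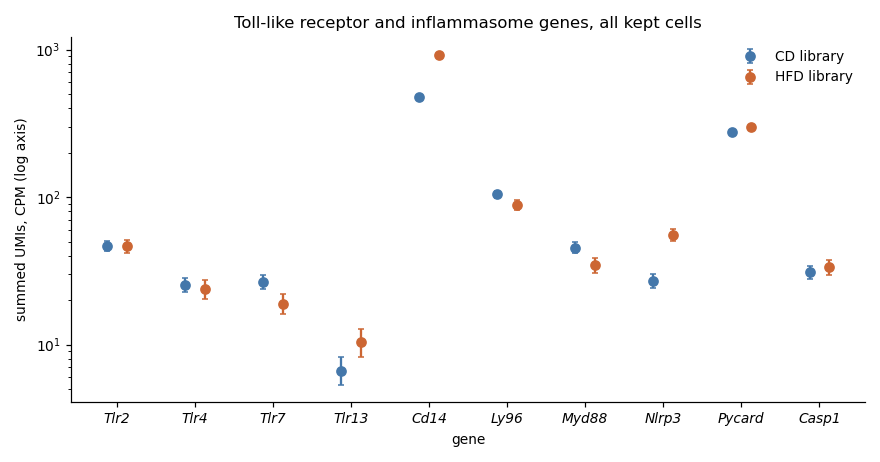
Level of each gene in all kept cells of the CD (blue) and HFD (orange) library, as summed UMIs in CPM on a log axis, with bars for 95% Poisson intervals. Cd14, Nlrp3 and Tlr13 are higher in the HFD library, and the bars of Tlr2, Tlr4, Pycard and Casp1 overlap between the libraries.

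Among the co-receptors, Cd14 (ENSMUSG00000051439, chromosome 18 from 36725067 to 36726798, minus strand, GRCm38) was at 479 CPM in the CD library (5886 UMIs, interval 467 to 492) and at 916 CPM in the HFD library (7410 UMIs, 896 to 937). The HFD library was thus 1.91-fold higher (interval 1.85 to 1.98). Ly96 (ENSMUSG00000025779, chromosome 1 from 16688051 to 16709611, plus strand) went the other way by a small margin, at 104 CPM in CD (98.7 to 110.2) and 88.3 CPM in HFD (81.9 to 95.02). Its log2 ratio over all kept cells was -0.24 (-0.38 to -0.11), inside the 1.5-fold limit but with an interval below 0. The classes differed in direction. Ly96 was at 0.36 (0.12 to 0.59) in Folr2+Lyve1- cells and 0.26 (0.00 to 0.51) in Lyz1-high cells. In Ccr2+ cells it was at -0.19 (-0.36 to -0.01). That Ccr2+ ratio was -0.59 with thinned cells but 1.04 within cells of exactly 1 class (98 CD and 235 HFD cells). Lyz1-high cells of exactly 1 class (8 and 55 cells) were at 1.67, so the direction depended on how classes were set. The intervals in Lyve1+ cells (-0.07) and Plac8+ cells (-0.10) spanned 0.

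Cd14 was higher in the HFD library in each of the 5 classes, though a class did not hold like cells in both libraries. In Lyve1+ cells the summed resident markers were at 10192 CPM in CD and 6276 CPM in HFD, Timd4 at 83.2 and 25.4 CPM and Folr2 at 1931 and 794 CPM, whereas Ear2 was at 328 and 908 CPM and Lyz1 at 1402 and 2969 CPM. The part of this shift in the ratios within classes was not tested. In Lyve1+ cells it was at 365 CPM in CD and 758 CPM in HFD, a log2 ratio of 1.05 (0.94 to 1.16). In Folr2+Lyve1- cells the levels were 534 and 909 CPM (0.77, 0.68 to 0.85), and in Ccr2+ cells 543 and 967 CPM (0.83, 0.78 to 0.89). The intervals of CD and HFD did not overlap in these 3 classes. In Lyz1-high cells Cd14 was at 591 and 1018 CPM (0.79, 0.72 to 0.85), and in Plac8+ cells, the fewest, at 369.8 and 754 CPM (1.03, 0.70 to 1.37). Within cells of exactly 1 class, the Ccr2+ ratio (98 CD and 235 HFD cells) was only 0.23, and that of Lyz1-high cells (8 and 55 cells) 1.24, both outside the intervals given above.

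The share of cells with a Cd14 UMI was also higher in HFD at equal depth. After each cell was thinned to 1000 UMIs, a UMI was left in 719 of 2312 cells from the CD library (31.1%, exact Clopper-Pearson interval 29.2 to 33%) and in 834 of 1754 from the HFD library (47.5%, 45.2 to 49.9%), with 52 and 267 shallower cells left out. Without thinning the shares were 66.7% and 68.8%, at median depths of 4490 and 2792 UMIs. Non-myeloid cells were too few to set a background, and whether they express Cd14 themselves was not tested. Before thinning, 1 of 7 in CD (median 1723 UMIs) and 1 of 6 in HFD (median 779.5) had a UMI, and 1 of 4 (25%) and 1 of 2 (50%) after it. With so few non-myeloid cells, the shares of all cells could not be judged against a background, and the part of free RNA in them was not tested.

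Of the receptors, the surface pair showed no difference between libraries beyond counting error. Tlr2 (ENSMUSG00000027995, chromosome 3 from 83836272 to 83841767, minus strand) was at 46.7 CPM in CD (574 UMIs) and 46.4 CPM in HFD (375 UMIs), a log2 ratio of -0.01 (-0.20 to 0.18). Tlr4 (ENSMUSG00000039005, chromosome 4 from 66827584 to 66930284, plus strand) was at 25.3 CPM in CD (311 UMIs) and 23.7 CPM in HFD (192 UMIs), a log2 ratio of -0.09 (-0.36 to 0.17). With every cell thinned to 1000 UMIs, the ratios of both genes were 0.40, and the cause of that shift was not tested.

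The endosomal pair differed in opposite directions over all kept cells. Tlr7 (ENSMUSG00000044583, chromosome X from 167304929 to 167330558, minus strand) was at 26.5 CPM in CD (325 UMIs) and 18.9 CPM in HFD (153 UMIs), a log2 ratio of -0.48 (-0.77 to -0.20), which ranged from -0.73 in cells with at least 1000 genes to -0.15 as a mean of per-cell CPM. Tlr13 (ENSMUSG00000033777, chromosome X from 106143204 to 106160493, plus strand) was at 6.68 CPM in CD (82 UMIs) and 10.4 CPM in HFD (84 UMIs), a log2 ratio of 0.64 (0.18 to 1.09). By class, Tlr7 was lower in HFD in Ccr2+ cells (log2 -0.46, -0.88 to -0.05) and Lyz1-high cells (-0.99, -1.89 to -0.14). With thinned cells, however, the Ccr2+ ratio was 0.22. The Tlr7 intervals spanned 0 in Lyve1+ cells (-0.12, -0.60 to 0.33) and Folr2+Lyve1- cells (0.44, -0.07 to 0.94). Both genes have low counts, and over all kept cells only Tlr13 passed the 1.5-fold limit.

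Tlr13 was also past that limit in 3 classes. Its levels were 8.38 CPM in CD and 14.5 CPM in HFD in Lyve1+ cells (log2 0.79, -0.04 to 1.58), 6.64 and 14.2 CPM in Folr2+Lyve1- cells (1.09, 0.34 to 1.85) and 1.47 and 4.57 CPM in Lyz1-high cells (1.64, 0.35 to 3.11, from 7 and 21 UMIs, and 0.86 as a mean of per-cell CPM). The Lyve1+ value does not exceed counting error, and it was 0.23 with at most 5% mitochondrial UMIs and -0.15 when 2 Lyve1 UMIs were asked for. In Ccr2+ cells the levels were 4.26 and 5.83 CPM, with overlapping intervals.

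Myd88 (ENSMUSG00000032508, chromosome 9 from 119335934 to 119341411, minus strand) was at 45.4 CPM in CD (558 UMIs) and 34.5 CPM in HFD (279 UMIs). Its log2 ratio was -0.40 (-0.61 to -0.19), within the 1.5-fold limit and -0.16 with thinned cells, and its exons overlap Acaa1a on the other strand. In Lyz1-high cells it was past the limit, at 47.5 CPM in CD and 29.6 CPM in HFD, a ratio of 0.623 (0.5 to 0.775). In Lyve1+ cells it was at 39.5 and 37.0 CPM, a difference within counting error. The log2 ratio was -0.57 in Folr2+Lyve1- and -0.48 in Ccr2+ cells, but 0.43 and 0.29 with thinned cells.

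Among the inflammasome genes the sensor differed between libraries, while the adaptor and the caspase stayed within 1.1-fold. Nlrp3 (ENSMUSG00000032691, chromosome 11 from 59541568 to 59566956, plus strand) was at 27.0 CPM in CD (331 UMIs, 24.1 to 30.0) and 55.0 CPM in HFD (445 UMIs, 50.04 to 60.4), which is 2.04-fold higher (1.77 to 2.36). Pycard (ENSMUSG00000030793, chromosome 7 from 127989708 to 127993867, minus strand) was at 278 CPM in CD (3413 UMIs) and 297 CPM in HFD (2402 UMIs), a log2 ratio of 0.10 (0.02 to 0.17). Casp1 (ENSMUSG00000025888, chromosome 9 from 5298517 to 5307265, plus strand) was at 31.1 CPM in CD (382 UMIs) and 33.4 CPM in HFD (270 UMIs), a log2 ratio of 0.10 (-0.13 to 0.33).

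The start regions of the sensor and of its adaptor are shown, as partners in 1 complex of which only the first was past 1.5-fold between the libraries. Each window runs from 250 bases before to 50 after the start in RefSeq (GRCm38.p6), 5′ to 3′ on the strand of the gene, at chr11:59541319-59541618 (plus strand) for Nlrp3 and chr7:127993818-127994117 (minus strand) for Pycard. Capitals mark matches, on either strand, to the consensus of NF-kB, AP-1 (TGANTCA), PU.1 (AGGAAGT) or CRE (TGACGTCA).
Nlrp3: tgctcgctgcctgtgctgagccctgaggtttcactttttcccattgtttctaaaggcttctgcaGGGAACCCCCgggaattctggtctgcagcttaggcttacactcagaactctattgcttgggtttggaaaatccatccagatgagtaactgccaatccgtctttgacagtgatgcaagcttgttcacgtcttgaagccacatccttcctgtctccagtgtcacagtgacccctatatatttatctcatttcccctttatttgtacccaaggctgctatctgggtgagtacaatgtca
Pycard: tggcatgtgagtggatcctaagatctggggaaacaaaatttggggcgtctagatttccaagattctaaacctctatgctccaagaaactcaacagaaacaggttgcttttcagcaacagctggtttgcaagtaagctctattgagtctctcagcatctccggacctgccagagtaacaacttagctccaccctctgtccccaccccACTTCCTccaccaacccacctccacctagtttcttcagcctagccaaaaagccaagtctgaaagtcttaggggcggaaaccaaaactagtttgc
The window of Tlr2, whose log2 ratio was -0.01, held 3 matches to the NF-kB consensus, 2 of them overlapping. The capitals in Nlrp3 are a match to the NF-kB consensus, 186 to 177 bases before the start, and those in Pycard a match to PU.1, 44 to 38 bases before it. Of 32851 promoter windows of this length, 8.46% held the NF-kB consensus, 9.35% PU.1, 7.81% AP-1 and 1.79% CRE. A window was held for 6 of the 10 genes, Tlr2, Tlr13, Myd88, Nlrp3, Pycard and Casp1, and RefSeq lists a further Nlrp3 start at chr11:59542436-59542735 with no match. A match is a description of letters and no binding was measured.

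Nlrp3 was higher in the HFD library in all 5 classes, past 1.5-fold in 4 of them. It was at 22.0 CPM in CD and 41.4 CPM in HFD in Lyve1+ cells (log2 0.91, 0.43 to 1.38), and at 33.2 and 57.2 CPM in Folr2+Lyve1- cells (0.78, 0.44 to 1.13). Without the 5% of cells with the most UMIs, the latter ratio was 0.55. In Ccr2+ cells the levels were 29.0 and 53.9 CPM (0.90, 0.65 to 1.14), in Lyz1-high cells 30.2 and 53.1 CPM (0.81, 0.51 to 1.12), and in Plac8+ cells 51.3 and 73.4 CPM (0.52, -0.45 to 1.55, and -0.48 with at most 5% mitochondrial UMIs). The CD and HFD intervals of the first 4 classes did not overlap, and those of Plac8+ cells did. At 1000 UMIs per cell, the share with a Nlrp3 UMI was 2.42% in CD (1.83 to 3.13%) and 5.87% in HFD (4.82 to 7.08%), against 10.7% and 15.3% unthinned. Of the non-myeloid cells 0 of 7 in CD and 0 of 6 in HFD had one, which by the exact interval allows a share of up to 41% and 45.9% and so sets no useful background.

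Pycard and Casp1 were within 1.5-fold between diets in each class, but with thinned cells Casp1 was at a log2 ratio of -1.12 in Folr2+Lyve1- cells and 0.85 in Lyz1-high cells. Pycard was lower in HFD within Folr2+Lyve1- cells, at 247 CPM against 304 CPM in CD (log2 -0.29, -0.44 to -0.15, and from -0.56 to -0.08 over the alternatives), and within counting error in the other 4 classes. Without thinning, Casp1 ranged from -0.16 in Lyve1+ cells to 0.33 in Folr2+Lyve1- cells, with all 5 intervals spanning 0. UMIs of Nlrp3, Pycard and Casp1 were found together in 30 of 2364 cells of the CD library (1.27%, 0.858 to 1.81%) and in 41 of 2021 of the HFD library (2.03%, 1.46 to 2.74%), which had the lower median depth. For Tlr4, Ly96 and Cd14, the parts of the lipopolysaccharide receptor, the numbers were 95 in CD (4.02%, 3.26 to 4.89%) and 44 in HFD (2.18%, 1.59 to 2.91%), and neither share was corrected for depth.

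**Figure D2:**
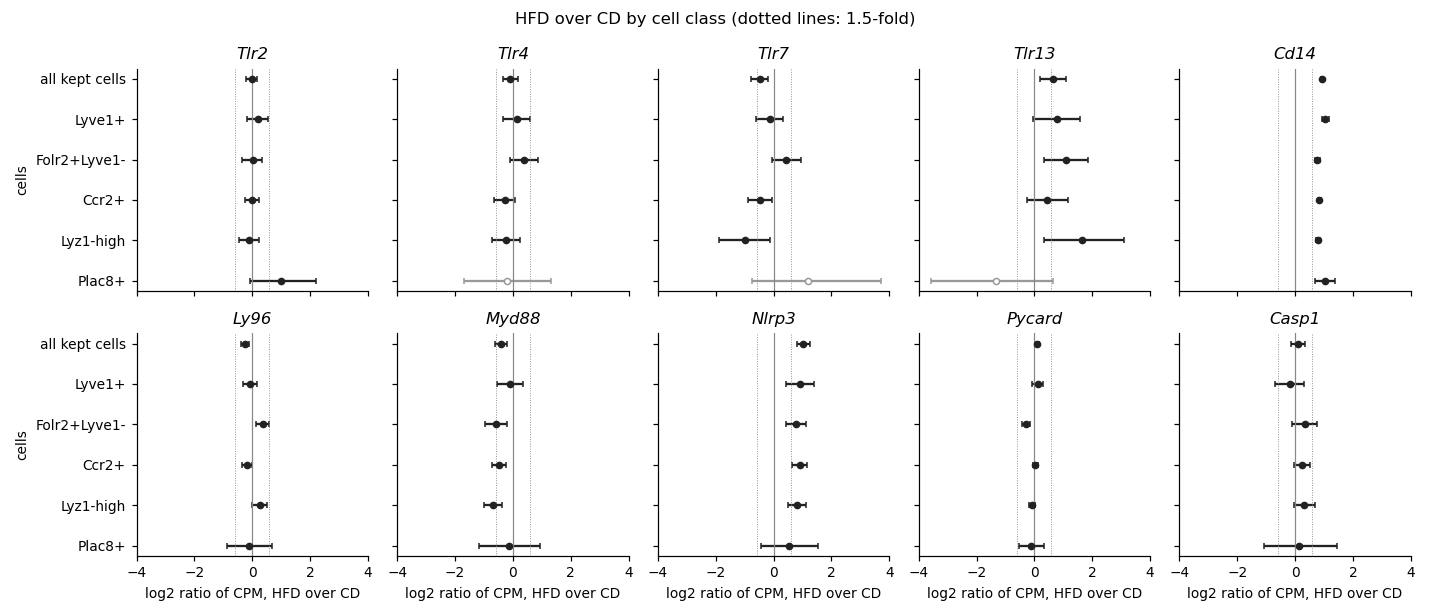
Log2 ratio of CPM, HFD over CD, for each gene in all kept cells and in the 5 classes, with bars for 95% counting intervals, dotted lines at 1.5-fold and open grey points where both libraries together held under 20 UMIs. The points of Cd14 lie right of 0.70 in every class, those of Nlrp3 right of 0, and those of Myd88 left of 0. The bars of Myd88 span 0 in Lyve1+ and Plac8+ cells, and that of Nlrp3 in Plac8+ cells.

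Counted by class, 3 of the 10 genes were higher by 1.5-fold in Lyve1+ cells (Cd14, Nlrp3 and Tlr13), where 9.39% of 9721 genes were, and 0 were lower, where 11.8% of genes were. In Folr2+Lyve1- cells the same 3 were higher (background 9.7% of 9690 genes) and 0 were lower (8.82%). In Ccr2+ cells 2 were higher, Cd14 and Nlrp3 (5.45% of 10551 genes), and 0 were lower (11.1%). Lyz1-high cells were the class with members in both directions. There 3 were higher, Cd14, Nlrp3 and Tlr13 (6.89% of 9683 genes), and 2 were lower (8.3%), Myd88 and Tlr7, the latter at 7.77 CPM in CD and 3.92 CPM in HFD (log2 -0.99, -1.89 to -0.14). In Plac8+ cells 2 of the 7 genes with at least 20 UMIs were higher (13.6% of 3812 genes) and 0 were lower (13.7%). These were Cd14 and Tlr2, the latter at 36.6 CPM in CD (10 UMIs) and 73.4 CPM in HFD (29 UMIs) with an interval that spans 0 (-0.08 to 2.20). In the same class the summed dendritic cell markers were at 51.3 CPM in CD and 412 CPM in HFD, with Flt3 at 0 and 1 UMIs. The same sum was at 178 and 182 CPM in Lyve1+ cells. In Plac8+ cells Chil3 was at 18.3 and 137 CPM and Ly6c2 at 472 and 162 CPM. The part of these markers in the Plac8+ ratios was not tested. One CD cell in the Plac8+ class held 567 UMIs of stromal markers such as Dcn, and without cells with at least 3 UMIs of endothelial, peritoneal or stromal markers the log2 ratios there were 0.98 for Cd14 and 0.95 for Tlr2.

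Some markers of other cells moved with diet as well. In all kept cells, 4 of 4 peritoneal macrophage markers with at least 20 UMIs were higher in HFD (summed 24.99 CPM in CD and 71.6 CPM in HFD), with the defining factor Gata6 at 6 and 5 UMIs, and 4 of 4 stromal markers were lower (77.7 and 4.95 CPM). Of 6 endothelial markers 1 was higher and 3 were lower (25.2 and 14.8 CPM). The peritoneal sums in CD and HFD were 17.4 and 43.96 CPM in Lyz1-high, 28.4 and 37.1 in Folr2+Lyve1-, 14.7 and 25.3 in Plac8+, 25.3 and 21.8 in Lyve1+, and 20.6 and 16.03 CPM in Ccr2+ cells. Their part in the differences of the members was not tested. Of the 7 resident macrophage markers 6 were lower in HFD (summed 6391 and 2766 CPM), and of the 5 monocyte markers 3 were higher, Plac8 and Chil3 among them. Without cells carrying at least 3 UMIs of endothelial, peritoneal or stromal markers, the log2 ratios over all cells were 0.91 for Cd14, 0.97 for Nlrp3 and 0.62 for Tlr13.

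Across classes, the 4 receptors and Ly96 were at a lower level in Lyz1-high than in Lyve1+ cells of each library, with Plac8+ cells, the fewest, at varying ranks. Tlr7 in CD was highest in Lyve1+ cells at 39.5 CPM, followed by 18.5 in Folr2+Lyve1-, 17.1 in Ccr2+, 10.98 in Plac8+ and 7.77 CPM in Lyz1-high cells, and of these neighbours only the first pair had intervals apart. In HFD the order was 36.3 CPM in Lyve1+, 25.3 in Plac8+, 25.2 in Folr2+Lyve1-, 12.5 in Ccr2+ and 3.92 CPM in Lyz1-high cells, and the intervals were apart between Folr2+Lyve1- and Ccr2+ cells and between Ccr2+ and Lyz1-high cells. Lyve1+ cells were thus on top in both libraries and Lyz1-high cells at the bottom.

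Ly96 followed a like order. In CD it was at 145 CPM in Lyve1+, 95.2 in Plac8+, 85.1 in Folr2+Lyve1-, 80.6 in Ccr2+ and 50.2 CPM in Lyz1-high cells, and in HFD at 138, 88.6, 109, 70.9 and 60.1 CPM in the same classes. Only Ccr2+ and Lyz1-high cells in CD were neighbours without overlap. Tlr4 ran from 33.5 CPM in Lyve1+ to 17.0 CPM in Lyz1-high cells in CD and from 37.0 to 14.4 CPM in HFD. Tlr2 was at 51.2 CPM in Lyve1+ and 31.5 CPM in Lyz1-high cells of CD, and at 58.8 and 28.9 CPM in HFD, where the 73.4 CPM of Plac8+ cells ranked first. Tlr13 in CD was at 25.6 CPM in Plac8+ cells, from 7 UMIs, and between 1.47 and 8.38 CPM in the other classes. The intervals of all neighbours overlapped for Tlr4 and Tlr13, and for Tlr2 all but Ccr2+ and Lyz1-high cells in HFD. In CD, Plac8+ cells, with wide intervals, ranked between Lyve1+ and Folr2+Lyve1- cells for Tlr4 and Ly96. The intervals of those classes were apart, at 28.8 to 38.8 and 17.1 to 25.4 CPM for Tlr4 and 135 to 155.6 and 77.2 to 93.65 CPM for Ly96.

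Cd14 and Pycard were instead highest in Lyz1-high cells. In CD, Cd14 was highest in Lyz1-high cells (591 CPM) and lowest in Lyve1+ (365 CPM) and Plac8+ cells (369.8 CPM), and in HFD again highest in Lyz1-high cells (1018 CPM) with Lyve1+ (758 CPM) and Plac8+ cells (754 CPM) at the bottom. Its Lyz1-high interval lay above that of Ccr2+ cells in CD and overlapped it in HFD. Pycard was at 380.2 CPM in Lyz1-high, 319.7 in Ccr2+, 304 in both Plac8+ and Folr2+Lyve1-, and 216 CPM in Lyve1+ cells of CD. In HFD these were 357, 325, 283, 247 and 233 CPM, and in both libraries the Pycard interval of Lyz1-high cells lay above that of the next class. Nlrp3 was lowest in Lyve1+ cells in both libraries, and for Nlrp3, Myd88 and Casp1 the intervals of all neighbours overlapped. Classes further apart in rank could still differ, as Nlrp3 in CD did between Folr2+Lyve1- (28.3 to 38.7 CPM) and Lyve1+ cells (18.2 to 26.3 CPM).

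**Figure D3:**
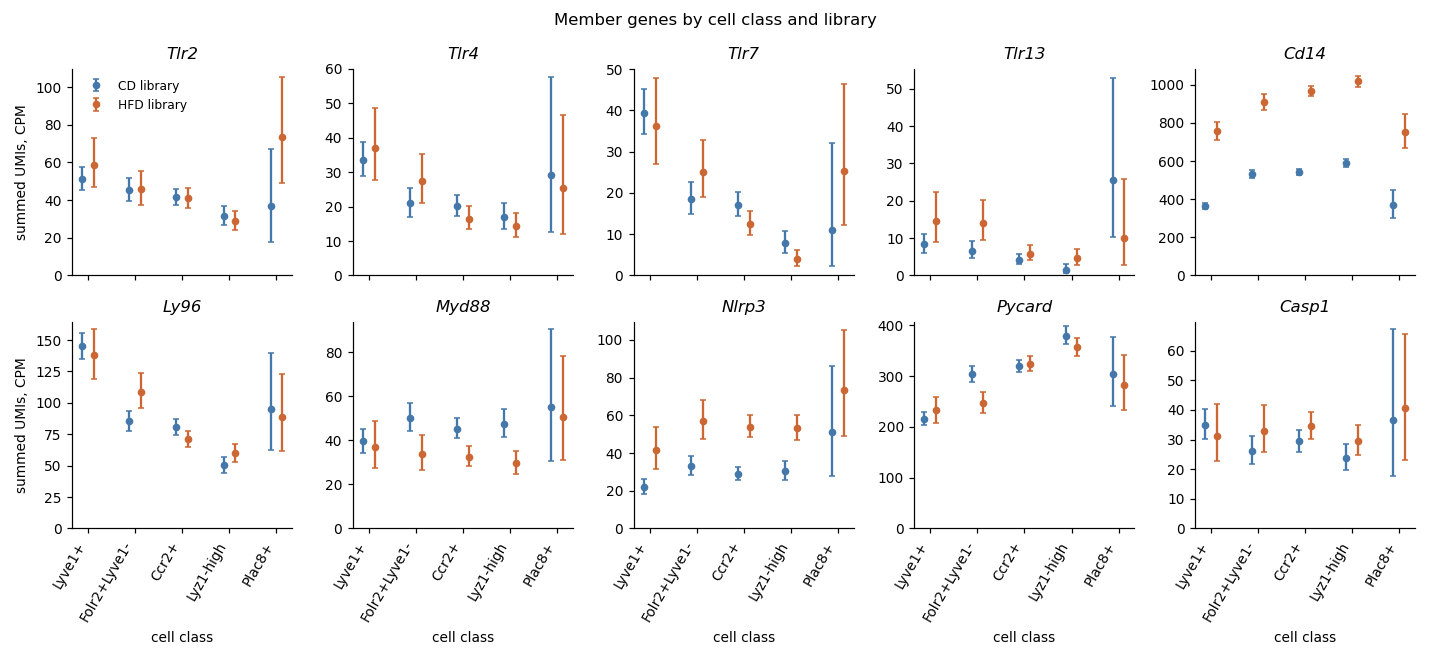
Level of each gene by cell class as summed UMIs in CPM, in the CD (blue) and HFD (orange) library, with bars for 95% Poisson intervals and every axis starting at 0. Tlr7, Ly96 and Tlr4 are lower in Lyz1-high than in Lyve1+ cells, Pycard is higher, and Cd14 is higher in HFD in every class.

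Classes without shared cells were compared next. Resident-marker cells (Lyve1+ with under 10 Lyz1 UMIs, 1049 in CD and 361 in HFD) were set against Lyz1-high cells without Lyve1 (432 and 618), at median depths of 3800 and 7924 UMIs in CD and 2064 and 6438 in HFD. In CD, 6 of the 10 genes were higher by 1.5-fold in resident-marker cells, Tlr2, Tlr4, Tlr7, Tlr13, Ly96 and Casp1, where 31.8% of 9863 genes were. The other 3 past the limit were lower, Cd14, Nlrp3 and Pycard, where 11.6% of genes were. In HFD, 5 were higher, Tlr2, Tlr4, Tlr7, Tlr13 and Ly96 (background 31.5% of 8869 genes), and Pycard alone was lower (13.7%). The median log2 ratio was 0.74 over the members and 0.26 over all genes in CD, and 0.88 and 0.24 in HFD.

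Tlr7 and Tlr13 had the widest ratios of the 10 genes, with intervals that overlapped each other in both libraries. The interval of Tlr13 also overlapped those of Ly96 and Tlr4 in both libraries, and that of Tlr2 in HFD. Tlr7 was at 46.6 CPM in resident-marker and 6.79 CPM in Lyz1-high cells of CD (6.86-fold, 4.52 to 10.9), and at 49.0 and 3.14 CPM in HFD (15.6-fold, 8.26 to 31.5, from 45 and 13 UMIs). Tlr13 was at 10.3 and 1.63 CPM in CD (6.29-fold, 2.67 to 18.1, from 44 and 6 UMIs) and at 18.5 and 4.35 CPM in HFD (4.25-fold, 2.06 to 8.74). The log2 ratio of Tlr13 in HFD, 2.09, was 0.97 when 2 UMIs of the class marker were asked for. Both genes of RNA sensors were thus low in Lyz1-high cells of either diet. Ly96 was at 167 and 48.1 CPM in CD (3.48-fold, 2.94 to 4.12) and at 167 and 58.01 CPM in HFD (2.89-fold, 2.34 to 3.55). Tlr4 was 2.35-fold higher in CD (1.72 to 3.24) and 3.38-fold in HFD (2.24 to 5.05), and Tlr2 1.83-fold (1.46 to 2.32) and 2.47-fold (1.78 to 3.38).

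Pycard was lower in resident-marker cells by nearly the same factor in each library, at 189 against 396 CPM in CD (log2 -1.07, -1.20 to -0.95) and 171 against 357 CPM in HFD (-1.06, -1.31 to -0.83). Cd14 was at 357 against 647 CPM in CD (-0.86, -0.95 to -0.77) and 689.7 against 1032 CPM in HFD (-0.58, -0.70 to -0.46), which in HFD lies just inside the 1.5-fold limit and was -0.68 with median-of-ratios scaling. Nlrp3 was at 18.2 against 28.3 CPM in CD (-0.64, -1.08 to -0.20, and -0.55 with thinned cells) and 39.2 against 53.9 CPM in HFD (-0.46, -1.01 to 0.05). Casp1 was 1.54-fold higher in CD (1.19 to 1.99) and 1.1-fold in HFD (0.711 to 1.65). Its log2 ratio in CD, 0.62, was 0.54 as a mean of per-cell CPM, 0.55 with totals without mitochondrial and ribosomal protein genes, 1.05 without the 5% of cells with the most UMIs and 1.90 with thinned cells. The log2 ratio of Myd88 was -0.34 (-0.66 to -0.02) in CD and 0.45 (-0.12 to 0.99) in HFD. Over the alternatives it ranged from -0.53 to -0.00 in CD. In HFD it ranged from 0.01 with at least 1000 genes per cell to 0.84 with thinned cells.

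**Figure D4:**
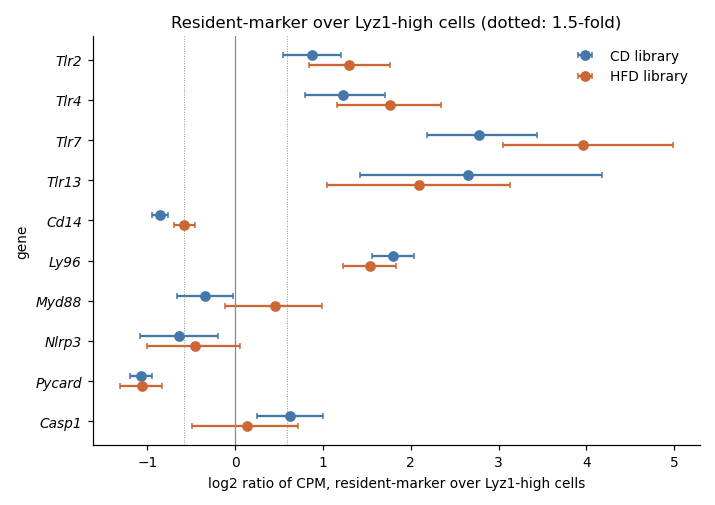
Log2 ratio of CPM, resident-marker over Lyz1-high cells without Lyve1, for each gene in the CD (blue) and HFD (orange) library, with bars for 95% counting intervals and dotted lines at 1.5-fold. The 4 receptors and Ly96 lie to the right in each library, with Tlr7 at 2.78 in CD and 3.96 in HFD, and Pycard lies to the left at -1.07 and -1.06.

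Other genes of the pathways were read from lists that, like the members, were chosen with earlier results of these data known. Of 12 cytokine and chemokine genes with at least 20 UMIs, 5 were higher by 1.5-fold in HFD over all cells and 0 were lower, with a median log2 ratio of 0.56. Over all genes, against which the counts of this and the following lists are read, 6.28% were higher and 11.9% lower, with a median of -0.02. Ptgs2, which makes prostaglandins, was at 16.6 CPM in CD and 64.4 CPM in HFD (log2 1.96, 1.72 to 2.20), and the cytokine Il6 at 102 and 179 CPM (0.81, 0.70 to 0.92). The other 3 were Il1a, Ccl3 and Cxcl2, which unlike Ptgs2 and Il6 did not stay past 1.5-fold under every alternative. Il1b, whose product caspase-1 matures, was at 563 and 840.2 CPM (0.58, 0.53 to 0.63), at the edge of the limit, and Il18 at 20.1 and 22.5 CPM (0.16, -0.12 to 0.44). Tnf was at 84.3 and 91.0 CPM, within counting error, and Ccl2 was lower in HFD, at 1331 and 912 CPM (-0.54, -0.58 to -0.50).

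None of 14 adaptors and kinases and none of 10 transcription factors reached 1.5-fold, with median log2 ratios of 0.01 and -0.03, and Irak2 had the highest ratio of the former at 0.53 (0.22 to 0.84). Of 10 negative regulators, Socs3 was lower (189 CPM in CD and 118 CPM in HFD) and the NF-kB inhibitor Nfkbia was at 1203 and 1448 CPM (0.27, 0.23 to 0.30). Of 7 other Toll-like receptor genes with enough UMIs, Tlr5 was higher and Tlr1 lower, and of 5 receptor chaperones and co-receptors 0 passed. Of 7 other sensors, Naip6 (log2 0.66, 0.20 to 1.12) and Mefv (0.74, -0.20 to 1.69, from 20 UMIs in CD and 22 in HFD) were higher, the latter within counting error. Of 9 partners and effectors, Txnip (489.7 and 305 CPM) and the ATP channel P2rx7 (41.6 and 27.3 CPM) were lower, while the pore protein gene Gsdmd was at 36.9 and 37.7 CPM. No gene named in this paragraph had both at least 100 UMIs and a ratio past 1.5-fold under every alternative.

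Genes that tissue digestion is known to induce were read beside these. Of 14 dissociation and heat shock genes, 2 were higher in HFD, Hspa1a (361 and 591 CPM) and Hspa1b (45.8 and 128 CPM), and the median was -0.01, with Fos at 4729 and 4390 CPM and Jun at 1292 and 1167 CPM. Their part in the differences of Cd14 and Nlrp3 was not tested.

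**Figure D5:**
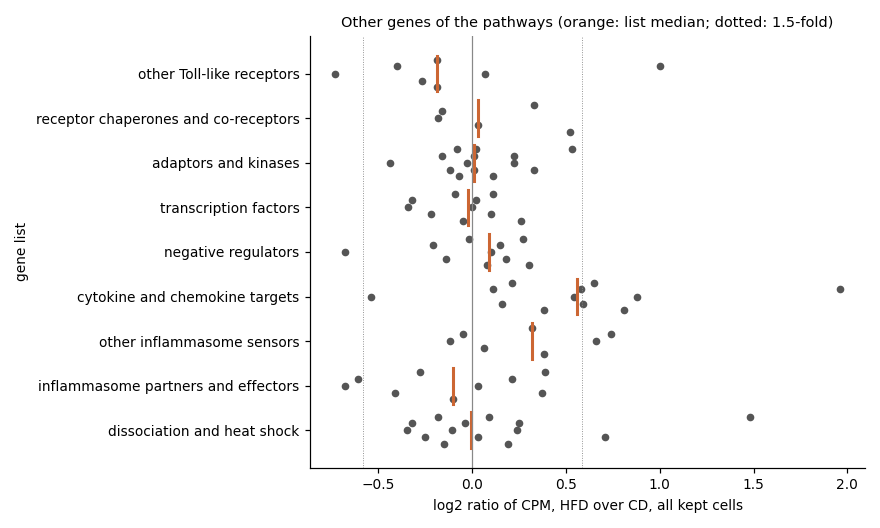
Log2 ratio of CPM, HFD over CD in all kept cells, for each other gene of the pathways with at least 20 UMIs (points), by list, with orange bars at list medians and dotted lines at 1.5-fold. The cytokine and chemokine list has its median at 0.56 and Ptgs2 at 1.96, while the medians of adaptors and kinases and of transcription factors lie at 0.01 and -0.03.

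The genes nearest to each member were sought over the 10 combinations of class and library, which share cells, libraries and depth. They are the 2 with the highest r among all genes with at least 500 UMIs, and no background of r was computed. Some points rest on few UMIs, such as the 3 of Tlr7 in Plac8+ cells of CD. Nlrp3 lay nearest to Thbs1 and Mpeg1 (Pearson r of 0.978 and 0.968 of log2 CPM), and Cd14 to Dynll1 and Eif1 (0.969 and 0.957). Ly96 lay nearest to Cd33 and Mcfd2 (0.984 and 0.980), Tlr7 to Srsf2 among others (0.970), and Pycard to Unc119 and Mcub (0.977 and 0.973). The nearest genes were Map7d1 and Scaf11 for Tlr2, Nsmce3 and Ddit3 for Tlr4, Lfng and Srsf4 for Tlr13, Got2 and Acvrl1 for Myd88, and Orai1 and Faap20 for Casp1, with r between 0.939 and 0.975.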

How the data were processed

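Single-cell RNA-seq (10x Genomics 3′, version 2 chemistry) of the CD and HFD libraries was used as deposited. The deposited values are raw UMI counts without normalization. For alignment and counting, the processing notes of the submitters name Cell Ranger 3.0.2 and mm10. Cells were filtered as given above, and the UMIs of a gene were summed over cells and divided by all UMIs of those cells (CPM). Levels had exact Poisson intervals, ratios exact conditional binomial intervals and shares Clopper-Pearson intervals, all at 95%, and differences between log2 ratios a normal approximation. With 1 library per diet no test between diets was made. A ratio was called at 1.5-fold with at least 20 UMIs in both groups together, and the background is the same call over all genes.

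The genes and lists were chosen with earlier results of these data known. Named genes were the 10 members, the genes of the pathway lists with at least 100 UMIs and 1.5-fold in 1 direction under every alternative over all cells (Ptgs2, Il6, Hspa1a and Hspa1b), and for each member the 2 genes with at least 500 UMIs and the highest Pearson r, of which 1 for Tlr7 is not reported here. Other genes of the lists were named after their values were seen, where few of a list passed or their role bears on the members.

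Python 3.11.15, numpy 2.4.6, scipy 1.17.1, pandas 2.3.3 and matplotlib 3.10.9 were used. The ratio intervals were tried on simulated Poisson counts only, which hold no spread between cells or mice. Positions are from GENCODE for GRCm38. The NF-kB consensus was narrowed after a looser form, tried first, was seen to match a large share of all promoters. The alternatives changed the mitochondrial limit (5 or 20%), the limits on genes, scaling, the weight and depth of cells, class markers and overlap, and left out the deepest cells, cells with other markers and shared barcodes. The removal of cells with 3 UMIs of endothelial, peritoneal or stromal markers was added after seeing the data.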

Additional observations from a re-analysis of the deposited data

Results flagged for a closer look

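The ratio of HFD over CD was compared between resident-marker cells and Lyz1-high cells without Lyve1, which share no cells. For 6 genes it either pointed in opposite directions or differed beyond counting error, and none of these differences was tested, with 1 library per diet. The counting interval of the difference (log2, resident-marker minus Lyz1-high) left out 0 for Tlr7 at 1.18 (0.11 to 2.25), Myd88 at 0.79 (0.17 to 1.41) and Cd14 at 0.28 (0.13 to 0.43). Tlr7 was at 46.6 CPM in CD and 49.0 CPM in HFD in resident-marker cells, and at 6.79 and 3.14 CPM in Lyz1-high cells. Cd14 was at 357 and 689.7 CPM in resident-marker cells and at 647 and 1032 CPM in Lyz1-high cells. Myd88 was at 36.8 and 40.2 CPM in resident-marker cells and at 46.7 and 29.5 CPM in Lyz1-high cells. Its log2 ratio of resident-marker over Lyz1-high cells in HFD, 0.45, was only 0.01 with at least 1000 genes per cell. The differences themselves were not recomputed under the alternatives. For Tlr2 the difference was 0.42 (-0.13 to 0.97), for Tlr4 0.52 (-0.19 to 1.23) and for Casp1 -0.48 (-1.16 to 0.20), each with opposite signs in these classes and an interval that holds 0. Resident-marker cells were not alike in the 2 libraries. Their summed resident markers were at 11838 CPM in CD and 8556 CPM in HFD, with Timd4 at 95.4 and 34.8 CPM but Cd163 at 483 and 684 CPM. Ear2 was at 98.4 and 363 CPM, while the summed monocyte-derived markers were at 37136 and 31877 CPM. The part of this in the differences was not tested.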

How the results depend on the processing

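Over all kept cells, the 3 genes higher in HFD stayed at 3 under all 12 alternatives, from 0.86 to 0.97 for Cd14, 0.92 to 1.37 for Nlrp3 and 0.60 to 0.79 for Tlr13. Of 0 genes lower by 1.5-fold, 1 was lower with at least 1000 genes per cell, Tlr7 at -0.73. Within classes, 13 ratios were higher and 2 lower, and the lower ones were 4 with at least 1000 genes per cell and 1 with cells of exactly 1 class, and 3 under 5 other alternatives. The higher ones ranged from 12 with thinned cells to 16 with the mean of per-cell CPM. For resident-marker over Lyz1-high cells in HFD, 1 gene was lower, but 2 were with at most 20% mitochondrial UMIs, the upper limits of the paper, median-of-ratios scaling, totals without mitochondrial and ribosomal protein genes, thinning, 2 UMIs of the class marker, or without cells with a UMI of other cell types, and 3 with the mean of per-cell CPM. The ratio of Tlr13 in Lyve1+ cells reversed to -0.15 with 2 Lyve1 UMIs. With thinned cells, Casp1 was at 1.90 for resident-marker over Lyz1-high cells in CD, and for HFD over CD at -1.12 in Folr2+Lyve1- and 0.85 in Lyz1-high cells. Of 1005 single ratios, 949 stayed within their counting interval, and 25 of the 55 outside it came from thinning. Thinning leaves fewer UMIs, sets the classes anew with Lyz1-high at 3 UMIs, and leaves out shallower cells. The part of each in these shifts was not tested. At 500 UMIs, 18 of 20 shares lay outside the interval of those at 1000, as a lower depth must give. No paired analysis was possible because each diet has 1 library, and no library could be left out. Low UMI counts limit the ratios of Tlr7, Tlr13, Casp1 and the Plac8+ class.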

Other observations

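Cells in none of the 5 classes were shallow, with a median of 1275 UMIs in 47 CD cells and 1022 UMIs in 276 HFD cells. Cd14, the co-receptor for lipopolysaccharide, was at 207 CPM in the CD cells (22 UMIs, 130 to 314) and 912 CPM in the HFD cells (371 UMIs, 821 to 1009), a log2 ratio of 2.14 (1.52 to 2.83). Nlrp3 had 2 UMIs in the CD cells and was at 90.9 CPM in the HFD cells (37 UMIs, 64.01 to 125), a log2 ratio of 2.27 (0.32 to 5.37). Of the 276 HFD cells 6 held 259 of the 579 UMIs of peritoneal macrophage markers in that library, and their part in these levels was not tested.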
